A study of Mus musculus with 4 samples.

Results

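The glutathione and peroxide defense enzymes of luminal mammary cells were described across 38 genes of the 52636 genes in the deposited table, of which 32271 had a unique molecular identifier (UMI, standing for 1 captured mRNA molecule) in any cell. The genes were chosen by name as enzymes of these families, with earlier results of the same data known, so their levels are given as a description. All 38 had a UMI, and together they took 1821489 UMIs. They comprised 4 alpha, 7 mu and 2 pi glutathione transferases, 6 other soluble transferases (omega, theta, kappa and zeta), 3 membrane-bound transferases, 6 glutathione peroxidases, 4 enzymes of glutathione synthesis and reduction, and 6 other peroxide and quinone enzymes.

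The luminal cells came from C57BL/6N mice aged 6 weeks that were either ErbB3+/+;MMTV-Cre (WT) or ErbB3V943R/V943R;MMTV-Cre (mutant). Both genotypes carried the MMTV-Cre transgene, which drives Cre in mammary epithelium and in the mutant switches on an *Erbb3* allele with the V943R substitution in the receptor's pseudokinase domain. The thoracic and abdominal glands of 3 mice per genotype were pooled, luminal cells were sorted, and each pool was sequenced as 2 droplet libraries, which are named A and B below without any tie across genotypes. With 1 pool per genotype, a difference between the pools cannot be told apart from one between the genotypes, and no test was made.

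Glutathione is a tripeptide that is made in consecutive ligase steps and serves as the electron donor of the glutathione peroxidases, which reduce hydrogen peroxide and lipid peroxides. The oxidized form is returned to glutathione by glutathione reductase, and the glutathione transferases join glutathione to electrophiles such as the aldehydes that lipid peroxidation leaves behind. Peroxiredoxins, catalase and superoxide dismutase act beside this system, and many of its genes are known targets of the transcription factor NRF2, which binds the antioxidant response element.

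The libraries held 6849 to 9627 cells and 30019745 to 38009351 UMIs each, and 511 cell barcodes occurred in 2 or more libraries (1027 cells). The deposited clusters and classes were used as they stand: clusters 1 and 2 are luminal progenitor (LP) cells, cluster 3 luminal intermediate (LI) cells, clusters 4 through 11 mature luminal (ML) cells, and clusters 12 and 13 rare cells of other types. The summed level of 7 LP markers was 8486 to 9437 in LP and 111 to 123 in ML libraries, and that of 7 ML markers was 981 to 1072 in LP and 8471 to 9144 in ML. LI cells expressed both lists. When the top 6% of each library by doublet score were set apart, they held 48.5% of WT and 50.6% of mutant LI cells, against 3.84% and 3.75% of LP cells. Cluster 11 had 2863 WT cells and 670 mutant cells. *Erbb3* itself was at 59.3 and 61.1 in ML cells of the WT libraries and at 27.1 and 28.6 in those of the mutant libraries. Levels here and below are UMIs summed over the cells of a unit per 1000000 UMIs of the same cells (CPM), with no division by gene length, since the libraries hold mRNA 3' ends. Because the classes were made from the same expression values, differences between classes are descriptions too. All 95% intervals cover counting error only.

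The 250 bases before the transcription start were available for 33 members. The core of the antioxidant response element, TGACNNNGC read on both strands, was found in 8 of them (24.2%), against 11.5% of the 27025 genes with an entry. These were *Gsta3*, *Gstm5*, *Gstm7*, *Mgst1*, *Gclm*, *Prdx1*, *Txnrd1* and *Sod1*. A gene counted when any of its promoters matched. By promoter the motif was in 8 of 46 of the members and in 3338 of 32851 of all genes. Other promoters of *Gstm7*, *Mgst1* and *Txnrd1* had no match. The promoters of the transferase with the strongest LP pattern, of the regulatory subunit of glutathione synthesis and of the peroxiredoxin *Prdx1* are shown with this motif in capitals (RefSeq, GRCm38.p6, 5′ to 3′ on the strand of the gene, all plus-strand genes at chr6:138140277-138140526, chr3:122245307-122245556 and chr4:116685349-116685598).
Mgst1: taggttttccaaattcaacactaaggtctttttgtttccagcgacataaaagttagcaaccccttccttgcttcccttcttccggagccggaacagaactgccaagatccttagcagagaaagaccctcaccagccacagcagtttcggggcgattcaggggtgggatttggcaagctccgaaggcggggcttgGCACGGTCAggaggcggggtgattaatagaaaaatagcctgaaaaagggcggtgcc
Gclm: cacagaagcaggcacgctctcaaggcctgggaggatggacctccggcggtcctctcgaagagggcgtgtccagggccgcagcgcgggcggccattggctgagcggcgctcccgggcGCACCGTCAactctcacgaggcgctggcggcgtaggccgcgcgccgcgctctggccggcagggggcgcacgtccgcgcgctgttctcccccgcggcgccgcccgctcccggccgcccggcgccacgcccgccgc
Prdx1: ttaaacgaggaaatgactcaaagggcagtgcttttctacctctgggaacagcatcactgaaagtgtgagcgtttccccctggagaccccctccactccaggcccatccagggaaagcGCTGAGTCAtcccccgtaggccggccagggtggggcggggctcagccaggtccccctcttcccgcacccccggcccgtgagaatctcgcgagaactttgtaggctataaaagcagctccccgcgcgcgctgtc
All 3 matches were on the strand opposite to the gene and began 56, 134 and 133 bases before the start. The match in *Prdx1* also holds TGACTCA, the AP-1 element, on the same strand as the match, and no other match in a member does. Of the 6 members higher in LP cells (described after the sequences), 3 had the motif, and of the 5 members higher in ML cells that have an entry, 0 did. The ML members *Gsta4*, *Gclc* and *Gsr* have no entry. With TMM factors (described there too), *Gstm5* and *Gstm7*, which have the motif, were no longer among the LP members. *Gclm*, which has it, was then among the ML members. A match of these letters is not a binding site, and a promoter without them says nothing of the factor.

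The alpha transferases *Gsta1* and *Gsta2* lie close to *Gsta4* on chromosome 9, and all 3 were higher in mutant ML cells. Their promoters are shown with the longest run of bases they share in capitals (chr9:78230419-78230668, plus strand, and chr9:78347146-78347395, minus strand).
Gsta1: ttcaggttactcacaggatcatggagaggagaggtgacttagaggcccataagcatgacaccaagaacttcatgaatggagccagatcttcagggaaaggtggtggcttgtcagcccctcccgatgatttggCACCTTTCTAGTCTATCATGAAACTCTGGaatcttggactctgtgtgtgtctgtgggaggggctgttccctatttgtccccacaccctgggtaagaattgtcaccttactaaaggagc
Gsta2: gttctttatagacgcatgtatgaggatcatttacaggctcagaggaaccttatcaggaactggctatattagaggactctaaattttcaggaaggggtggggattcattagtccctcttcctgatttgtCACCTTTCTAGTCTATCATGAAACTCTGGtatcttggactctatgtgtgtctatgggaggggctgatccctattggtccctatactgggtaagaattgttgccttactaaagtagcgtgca
The shared run is 29 bases long and begins 118 bases before the start in *Gsta1* and 121 in *Gsta2*. Laid over each other with a shift of 3 bases, the promoters had the same base at 136 of 247 positions (55.1%). Neither holds the TGACNNNGC core.

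The question of the first comparison is which members distinguish LP from ML cells. The membrane transferase *Mgst1*, the quinone reductase *Nqo1* and catalase (*Cat*) were higher in LP cells, whereas the secreted peroxidase *Gpx3*, glutathione reductase (*Gsr*), the catalytic subunit of glutathione synthesis (*Gclc*) and *Gsta4*, which clears 4-hydroxynonenal, were higher in ML cells. Counted as a difference of at least 2-fold in each of the 4 libraries, with at least 50 UMIs in the class with more, 6 of 36 members were higher in LP and 8 in ML. Over all 17024 genes with that many UMIs, 10.2% were higher in LP and 6.86% in ML. The median log2 ratio of the 36 members, LP over ML, was -0.43 in WT and -0.35 in the mutant, beside 0.16 and 0.20 for all genes. With TMM factors in place of totals, which moved the median of all genes by -0.29, the members split as 4 higher in LP and 13 in ML, and all genes as 7.87% and 9.33%.

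*Mgst1*, a transferase and peroxidase of membranes, was the member most abundant in LP cells. Its level in LP cells was 1771 and 1893 in the WT and 1794 and 1913 in the mutant libraries. In ML cells it was 90.6 and 99.2 in the WT and 95.7 and 94.7 in the mutant libraries. The 4 libraries thus gave LP levels that were 18.8-fold to 20.2-fold above the ML levels, and LI cells lay between (685 in WT and 606 in the mutant). After each cell had been thinned to 1000 UMIs, a UMI of *Mgst1* was found in 81.3% of WT LP cells (79.9 to 82.7) and in 8.66% of WT ML cells (8.20 to 9.14), compared with 94.9% and 27.6% unthinned. The thinned share in the WT cells of clusters 12 and 13 was 15.1% (9.33 to 22.5). By cluster it was 23.3% in cluster 12 and 10.8% in cluster 13. The median depth of the 2 clusters together was 1922 UMIs, against 3508 in ML cells. The ML share was thus not above that of other cell types, and whether it is expression or background was not tested.

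*Nqo1* and *Cat* had the same direction at lower levels. *Nqo1* was at 29.98 and 35.2 in WT and at 27.8 and 30.7 in mutant LP cells, but at 1.00 to 1.60 in ML cells of all 4 libraries. *Cat* was at 54.0 and 64.2 in WT and at 65.8 and 59.4 in mutant LP cells, and at 12.9 to 15.3 in ML cells. For neither gene did the LP range meet the ML range, with 19.2-fold to 27.8-fold differences in *Nqo1* and 3.69-fold to 4.66-fold differences in *Cat*. The thinned share of WT LP cells with a *Nqo1* UMI was 3.81% (3.17 to 4.54), above the 0.141% (0.0862 to 0.218) of ML cells. It lay inside the interval of clusters 12 and 13 (1.59%, 0.193 to 5.62). It was thus not told apart from the share in those cells, nor was the mutant share (3.25% against 1.82%, 0.221 to 6.41). By cluster the WT share was 4.65% (0.568 to 15.8) of 43 cells in cluster 12. In cluster 13 it was 0% of 83 cells (interval up to 4.35%). For *Cat* the WT LP share was 5.94% (5.14 to 6.82), against 1.44% in ML cells and 1.59% (0.193 to 5.62) in clusters 12 and 13, and the mutant LP share of 6.51% lay inside the interval of its clusters 12 and 13 (3.64%, 0.9995 to 9.05). Unthinned, the WT shares in LP cells, ML cells and clusters 12 and 13 were 7.76%, 0.585% and 4.76% for *Nqo1* and 14.1%, 5.74% and 14.3% for *Cat*. The mu transferase *Gstm5* also met the rule, at 97.5 to 122 in LP and 38.7 to 47.8 in ML cells. The other 2 genes that met it were sparse, *Gstm7* with 123 UMIs and the endoplasmic reticulum peroxidase *Gpx7* with 234 UMIs in all.

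*Gpx3*, the plasma peroxidase that cells secrete, had 1238552 UMIs and accounted for 68.0% of all UMIs of the members. It was at 9628 and 9549 in WT and at 11584 and 11739 in mutant ML cells. In LP cells it was at 923 and 893 in WT and at 1147 and 1210 in the mutant, 9.70-fold to 10.7-fold below the ML level of the same library. The thinned share of WT LP cells with a *Gpx3* UMI was 42.9% (41.2 to 44.7), at a median depth of 2018 UMIs. In WT cells of clusters 12 and 13 it was 54.8% (45.7 to 63.6), at 1922 UMIs. By cluster it was 69.8% in cluster 12 and 47.0% (35.9 to 58.3) in cluster 13. Whether the LP share is expression or background was not tested. In ML cells the thinned share was 88.9% in WT and 94.1% in the mutant. Unthinned, the 4 shares of WT LP cells, WT ML cells, mutant ML cells and WT cells of clusters 12 and 13 were 65.9%, 97.8%, 99.2% and 74.6%.

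**Figure D1:**
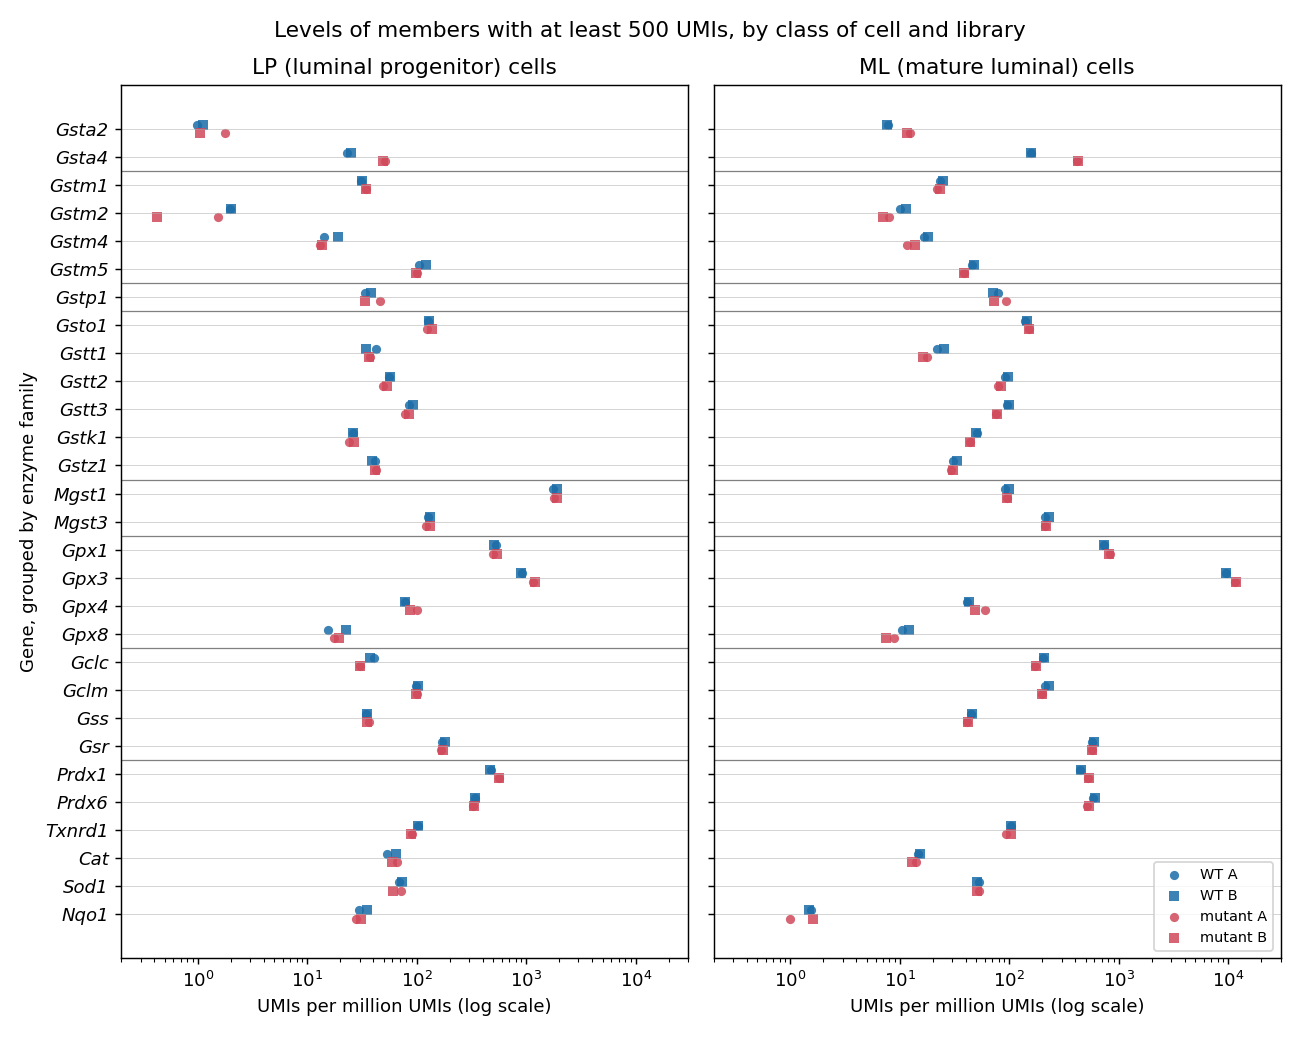
Levels of the 29 members with at least 500 UMIs in LP cells (left) and ML cells (right), in UMIs per 1000000 UMIs on a log axis; each point is 1 library, blue for WT and red for mutant. *Mgst1* lies at 1771 to 1913 in LP and at 90.6 to 99.2 in ML cells, and *Gpx3* at 893 to 1210 in LP and at 9549 to 11739 in ML cells.

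Of the 4 enzymes of glutathione synthesis and reduction, *Gclc* and *Gsr* met the rule for ML cells. *Gclc* was at 202 and 209 in WT and at 172 and 175 in mutant ML cells, against 30.2 to 40.4 in LP cells. *Gsr* was at 570 and 599 in WT and at 568 and 567 in mutant ML cells, against 166 to 182 in LP cells. The ranges did not meet, with ML levels 5.004-fold to 5.79-fold (*Gclc*) and 3.29-fold to 3.42-fold (*Gsr*) above LP. *Gclm*, the regulatory partner of *Gclc*, was 1.95-fold to 2.22-fold higher in ML cells and so missed the rule in 1 or more libraries, and *Gss*, the second ligase, was 1.12-fold to 1.30-fold higher. The thinned share of WT LP cells with a *Gclc* UMI, 2.57% (2.05 to 3.19), was below the 7.14% (3.32 to 13.1) of clusters 12 and 13, whereas it was 17.9% (17.2 to 18.5) in WT ML cells. Unthinned, these shares were 7.48% in WT LP cells, 17.5% in clusters 12 and 13 and 46.6% in WT ML cells.

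Among the soluble transferases, *Gsta4* was at 159 in ML cells of each WT library and at 418 and 425 in those of the mutant, 6.37-fold to 8.70-fold above the LP level of the same library. *Gsta2* (1089 UMIs) and *Gstm2* (1112 UMIs) were lower in level but also met the rule for ML, at 7.69 to 12.4 in ML against 0.991 to 1.77 in LP cells for *Gsta2*, and at 7.08 to 11.5 against 0.42 to 2.01 for *Gstm2*. The remaining genes that met it, *Gstm6* and *Mgst2*, had 116 and 212 UMIs. The transferases with at least 500 UMIs that did not meet the rule in either direction lay closer to 1-fold. *Gstp1* was 1.85-fold to 2.32-fold, *Gstk1* 1.64-fold to 1.95-fold, *Gstt2* 1.56-fold to 1.70-fold and *Mgst3* 1.66-fold to 1.76-fold higher in ML cells, whereas *Gstt1* was 1.36-fold to 2.27-fold and *Gstm1* 1.28-fold to 1.56-fold higher in LP cells. *Gsto1*, *Gstt3*, *Gstm4* and *Gstz1* differed by at most 1.46-fold in any library. Among the sparse transferases, *Gsta1* was 3.15-fold higher in ML cells of WT, with 1 UMI in WT and 0 in mutant LP cells, and missed the rule. *Gsta3*, with 19 UMIs in all, had too few to compare the classes. In WT it had 4 UMIs in LP and 7 in ML cells, and in the mutant 2 and 5. The intervals of its log2 ratio, LP over ML, included no difference. They were -0.29 to 3.90 in WT (3.81-fold) and -2.32 to 3.68 in the mutant (2.10-fold).

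Of the other peroxide enzymes with at least 500 UMIs, *Prdx1* and *Txnrd1* had overlapping ranges in the classes, and 5 others differed by less than 2-fold in 1 or more libraries. *Prdx1* was at 463 to 564 in LP and at 438 to 538 in ML cells, and *Txnrd1*, which reduces thioredoxin, was at 88.2 to 103 in LP and at 93.5 to 103 in ML cells. These ranges overlapped. *Prdx6* and *Gpx1* were higher in ML cells in all 4 libraries, by 1.58-fold to 1.77-fold and 1.39-fold to 1.68-fold, whereas *Gpx4*, *Gpx8* and *Sod1* were higher in LP cells in all 4, by 1.68-fold to 1.88-fold, 1.47-fold to 2.58-fold and 1.201-fold to 1.48-fold. *Gpx4*, the peroxidase of membrane lipids, is uncertain in level, because 85.8% of the stretches of 50 bases in its last 400 transcript bases also occur in a processed copy, *Gpx4-ps2*. The same holds for *Gstp1* and *Gstp2*, which share 91.2% of the stretches of *Gstp1*, and for *Gsta1*, of whose stretches 87.2% occur in other genes. For *Gsta2* the value was 46.7% and for *Sod1* 18.2%, and 28 members shared none.

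Summed over the 38 members, the enzymes took 0.553% of UMIs in WT and 0.589% in mutant LP cells, and 1.37% and 1.61% in ML cells. Without *Gpx3* the shares were 0.462% and 0.471% in LP and 0.415% and 0.441% in ML cells. The classes therefore differed little in the summed level of the other 37 genes but in which genes carried it. Membrane transferases summed to 1965 in WT LP and 319 in WT ML cells, the enzymes of glutathione synthesis and reduction to 351 and 1057, and the alpha transferases to 25.7 and 167.

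Within the classes, the members peaked in different clusters. Of the 29 members with at least 500 UMIs, 11 had their highest WT level among the 11 luminal clusters in clusters 1 and 2 (37.9%, against 42.3% of the 11709 genes with as many UMIs). In the ML clusters 5 and 6, which cycle, 8 members peaked (27.6% against 18.7%), among them *Gclm* (351 in cluster 5 and 340 in cluster 6 of WT cells). *Gpx3* and *Gsr* peaked in cluster 10, where *Gpx3* was at 20128 and 20674 in the WT and at 21322 and 21824 in the mutant libraries, and *Gsr* at 775 and 867 and at 731 and 722. *Gsta4*, *Gstk1* and *Gstm4* peaked in cluster 7. The lowest luminal levels of *Gpx3*, *Gclc*, *Gsr* and *Gsta4* were all in cluster 1.

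**Figure D2:**
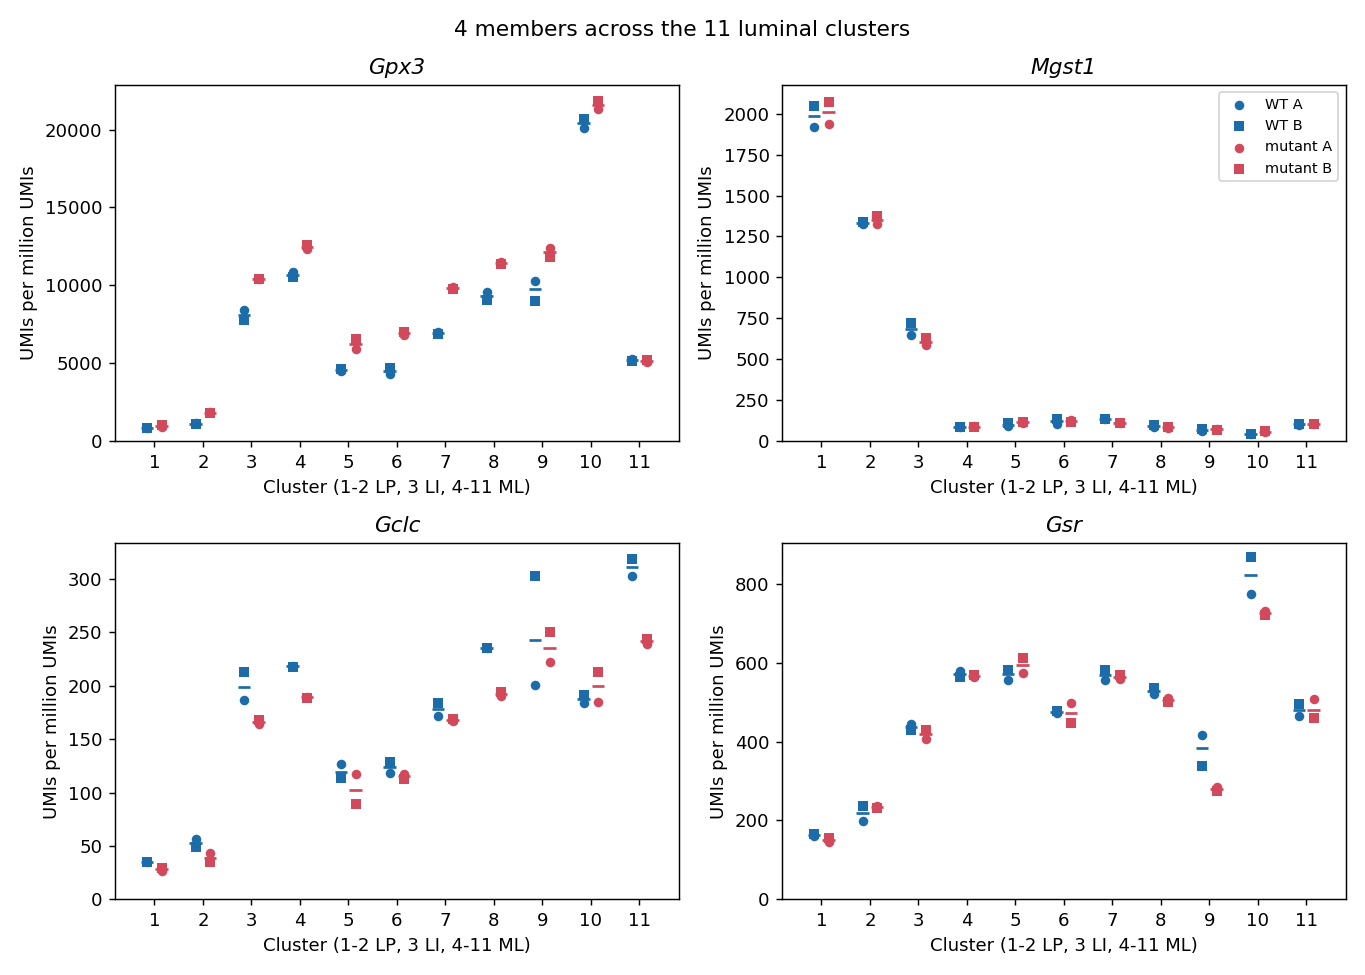
Levels of *Gpx3*, *Mgst1*, *Gclc* and *Gsr* in the 11 luminal clusters, in UMIs per 1000000 UMIs; points are libraries, bars the level over both libraries of a genotype, blue for WT and red for mutant. *Gpx3* and *Gsr* are highest in cluster 10, *Mgst1* in cluster 1 and *Gclc* in cluster 11.

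Cluster 11, the ML cluster that was smaller in the mutant, held the peak of 5 members (17.2%, against 5.63% of all genes), which were *Gclc*, *Gss*, *Gstm2*, *Gstt3* and *Prdx6*. *Gclc* was at 311 in cluster 11 and at 184 in the other ML clusters of WT cells, and at 242 and 169 in mutant cells. *Prdx6*, which reduces phospholipid peroxides, was at 806 and 548 in WT and at 833 and 509 in mutant cells. In the opposite direction, *Gpx3* was at 5215 in cluster 11 and 10455 in the other ML clusters of WT cells, and at 5143 and 12028 in mutant cells. *Gsta4* was at 57.3 and 179 in WT and at 156 and 436 in mutant cells. Each of these 4 differences had the same direction in all 4 libraries, and cluster 11 was higher for *Gclc* and *Prdx6* and lower for *Gpx3* and *Gsta4*.

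The second comparison asks which members differ between mutant and WT cells. *Gsta4* was higher in mutant LI and ML cells and in each of clusters 3 through 11, and its neighbours *Gsta1* and *Gsta2* were higher in mutant ML cells. In LP cells (clusters 1 and 2) *Gsta4* met the rule as well, but at shares of cells that were not told apart from those in clusters 12 and 13, and not without the cells of top doublet score. A member was counted as higher or lower when its level differed by at least 1.5-fold, provided that the higher genotype had at least 50 UMIs and that the libraries of the genotypes did not overlap. In ML cells 4 of 35 members were higher (*Gsta1*, *Gsta2*, *Gsta4* and *Gpx2*) and 1 was lower (*Mgst2*), where 2.86% and 1.57% of all genes were. In LP cells 1 of 27 was higher (*Gsta4*) and 0 were lower, beside 2.23% and 0.606% of all genes. In LI cells 1 of 28 was higher (*Gsta4*) and 0 were lower, beside 2.83% and 1.03%. Over all cells 2 of 36 were higher (*Gsta1* and *Gsta4*) and 1 lower (*Mgst2*), beside 3.23% and 1.17%. The median log2 ratio of the members, mutant over WT, was -0.09 in ML and -0.02 in LP cells, and that of all genes 0.00 and 0.02.

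*Gsta4* (chromosome 9, 78182774 to 78209349, plus strand, GRCm38) had 31275 UMIs. Over all cells it was at 133 and 134 in the WT and at 342 and 347 in the mutant libraries, so the libraries of a genotype lay close together and the genotypes far apart. In ML cells the log2 ratio was 1.41 (95% interval 1.37 to 1.44), a 2.65-fold difference. In LI cells, with 71.0 and 73.7 in WT against 225 and 230 in the mutant, it was 1.65 (1.51 to 1.797). Among the genes tested that had a UMI in both genotypes, *Gsta4* was the 11th highest by this ratio of 15157 in ML and the third of 10523 in LI cells. Weighting the ML clusters of both genotypes by the WT mix gave 1.25.

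In LP cells *Gsta4* was at 23.0 and 25.0 in WT and at 51.4 and 48.8 in the mutant (log2 ratio 1.06, 0.81 to 1.30), but this value moved when a few cells were left out. With the top 6% of each library by doublet score left out, LP cells were at 18.8 and 19.0 in WT and at 30.1 and 26.2 in the mutant, a log2 ratio of 0.57 (0.25 to 0.88), and the 1.5-fold rule was no longer met. The thinned share of LP cells with a *Gsta4* UMI was 1.65% in WT cells (1.24 to 2.16) and 2.58% in mutant cells (2.04 to 3.21), and in clusters 12 and 13 it was 2.38% (0.494 to 6.80) and 1.82% (0.221 to 6.41), at median depths of 2018, 2067, 1922 and 1680 UMIs. The WT share was below that of clusters 12 and 13 and the mutant share inside the interval of its own, so neither was told apart from the share in those cells. Unthinned, the same shares were 4.59%, 6.92%, 7.94% and 8.77%. In proportion to *Gpx3*, the level of *Gsta4* was 2.65% in WT LP and 1.66% in WT ML cells, and 4.23% and 3.61% in mutant cells. In clusters 12 and 13 it was 0.774% in WT cells (13 UMIs of *Gsta4*) and 4.004% in mutant cells (45 UMIs), and the mutant value rests on library B, where *Gsta4* was at 256 in these clusters against 39.2 in library A.

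In ML cells the thinned share with a *Gsta4* UMI was 10.48% in WT cells (9.98 to 10.99) and 22.1% in mutant cells (21.2 to 22.9), both above the shares in clusters 12 and 13, at median depths of 3508 and 4070 UMIs. Unthinned, the ML shares were 25.2% and 45.5%. In LI cells the thinned shares were 5.60% in WT and 15.1% in the mutant (unthinned 22.9% and 46.7%), in cluster 10 they were 6.31% and 11.7% (17.8% and 30.02%) and in cluster 11 they were 5.34% and 11.1% (13.6% and 27.5%). These mutant shares lay above the interval of clusters 12 and 13 given before (0.221 to 6.41), whereas the WT shares lay inside theirs (0.494 to 6.80) and were not told apart from it. The level was highest in cluster 7, at 306 and 309 in the WT and 672 and 632 in the mutant libraries, and lowest in cluster 1, at 19.8 and 14.5 and at 37.7 and 31.3. In each of the 11 luminal clusters both mutant libraries lay above both WT libraries, with log2 ratios from 1.01 (cluster 1) to 1.65 (cluster 3), although clusters 1 and 2 are the LP cells, whose shares were not told apart from those in clusters 12 and 13. In cluster 11, where *Gsta4* was the 1 of 27 members that was higher and *Gstm2* the 1 that was lower (2.7% and 3.17% of all genes), it was at 55.2 and 59.2 in WT and at 122 and 184 in the mutant. Its log2 ratio there was 1.45, and 1.09 without mutant library B. The *Gstm2* ratio there, -0.63, was -0.28 without WT library B and -0.41 without mutant library B, below the 1.5-fold rule.

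**Figure D3:**
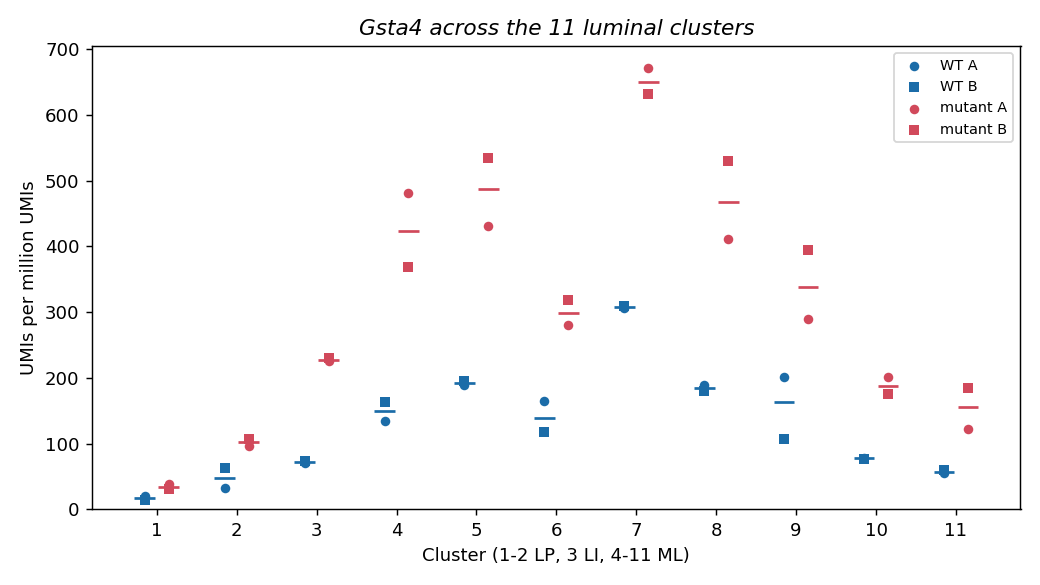
Level of *Gsta4* in the 11 luminal clusters, in UMIs per 1000000 UMIs; points are libraries, bars the level over both libraries of a genotype, blue for WT and red for mutant. Mutant libraries lie above WT libraries in all 11 clusters, including the LP clusters 1 and 2, from 17.0 against 34.2 in cluster 1 to 308 against 651 in cluster 7.

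The difference was shared by the other alpha genes of the same locus. *Gsta1*, 47.9 kb from *Gsta4* and with 103 UMIs in ML cells, was at 0.41 and 0.34 in the WT and at 1.78 and 1.81 in the mutant libraries (log2 ratio 2.28, 1.57 to 3.05). *Gsta2*, 173 kb away, was at 7.81 and 7.69 in WT and at 12.4 and 11.6 in the mutant (0.63, 0.44 to 0.81). The thinned share of ML cells with a *Gsta2* UMI was 0.663% in WT and 1.15% in the mutant, above the 0.127% (0.0346 to 0.325) of WT LP cells. It was not told apart from clusters 12 and 13, where 0 of 126 WT and 0 of 110 mutant cells had one (intervals up to 2.89% and 3.298%). Unthinned, the *Gsta2* shares were 2.88% and 4.90% in ML cells and 0.251% in WT LP cells. With 1 mix of clusters in both genotypes the *Gsta2* ratio was 0.47 and below the rule. With either mutant library left out, *Gsta1* had fewer than 50 UMIs in each genotype and so could not meet the rule. The alpha-related genes between them, *Gm3776* and *Gm10639*, had 16 and 52 UMIs, too few for the rule, at log2 ratios of 3.12 (1.00 to 6.30) and 1.62 (0.72 to 2.59). *Gsta1* shares 85.5% of the stretches of its transcript end with *Gm3776*, so UMIs of these copies may have been divided among them or dropped, while *Gsta4* shares none.

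Of the 16 other genes within 1000 kb of *Gsta4* that had enough UMIs in ML cells, the 2 that met the rule were *Gsta1* and *Gsta2*. *Gclc*, at -428 kb on the same chromosome, was at -0.25. On the *Gsta4* side of the alpha locus the nearest of these genes were *C920006O11Rik* at -0.07 (-0.22 to 0.09), *Rn7sk* at 0.00 (-0.40 to 0.40), *Ick* at 0.43 (0.29 to 0.58) and *Fbxo9* at 0.02 (-0.06 to 0.11). On the *Gsta2* side they were *Gm8087* at 0.23 (-0.26 to 0.73), *Mb21d1* at -0.02 (-0.22 to 0.18), *Mto1* at -0.03 (-0.20 to 0.14), *Gm26377* at 0.28 (0.23 to 0.32) and *Eef1a1*, which contains it, at 0.23 (0.20 to 0.27). *Gsta3*, the alpha member on chromosome 1, had 19 UMIs in all.

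**Figure D4:**
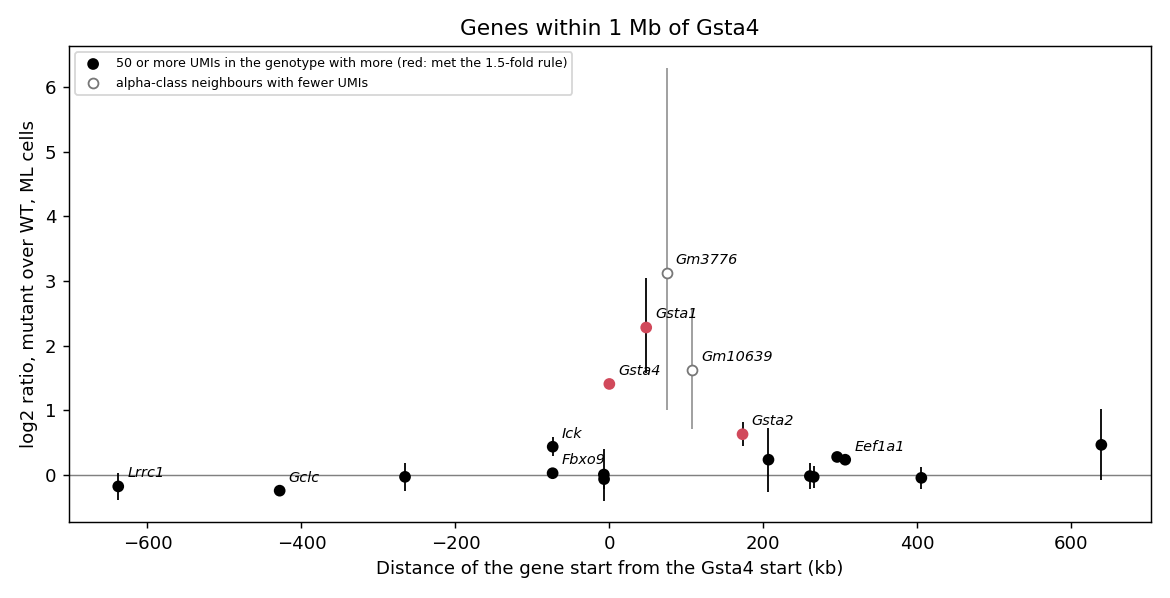
Log2 ratio of ML levels, mutant over WT, for genes within 1000 kb of *Gsta4*, against the distance of their start in kb; lines are 95% counting intervals, red points met the 1.5-fold rule and open points are alpha-related genes with too few UMIs. The alpha genes from *Gsta4* to *Gsta2* lie between 0.63 and 3.12, and the other genes shown between -0.25 and 0.46.

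Of the 6 glutathione peroxidases, *Gpx2* met the rule for higher levels in mutant ML cells. *Gpx1*, *Gpx3* and *Gpx4*, and also *Prdx1*, had both mutant libraries above both WT libraries there by less than the rule asks, whereas *Gpx8* had both below and *Gpx7* overlapped. *Gpx3* in ML cells had a log2 ratio of 0.28 (0.28 to 0.29), and its mutant libraries lay above its WT libraries in 10 of the 11 luminal clusters, with -0.02 in cluster 11. In LP cells the *Gpx3* ratio was 0.38, but 0.05 (-0.01 to 0.10) without the cells of top doublet score. Whether the share of LP cells with a *Gpx3* UMI is expression or background was not tested. *Prdx1*, the main cytosolic peroxiredoxin, was at 438 and 454 in WT and at 528 and 538 in mutant ML cells (0.26, 0.23 to 0.28), and its mutant libraries lay above its WT libraries in 10 of the 11 luminal clusters too. *Gpx1* was at 733 and 727 in WT and at 833 and 818 in mutant ML cells (0.18, 0.16 to 0.20). *Gpx4* was at 41.1 and 42.7 in WT and at 59.6 and 48.2 in the mutant (0.36, 0.27 to 0.44), with the mutant libraries far apart. *Gpx2*, a peroxidase known from the gut, met the rule in ML cells with 172 UMIs over all cells, at 0.96 and 1.18 in WT and at 1.69 and 1.73 in the mutant. Its log2 ratio was 0.67 (0.17 to 1.18), and 0.53 without WT library A and 0.55 with 1 mix of clusters, both below the rule.

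Of the enzymes of glutathione synthesis and reduction and the mu and theta transferases, 0 met the rule in ML cells. Of all genes 2.86% were higher and 1.57% lower there, so for so few genes this is not a result about them. *Gclc* was at -0.25 (-0.29 to -0.20) in ML cells, *Gclm* at -0.15 (-0.19 to -0.12) in ML cells, *Gss* at -0.13 (-0.22 to -0.04) and *Gsr* at -0.04 (-0.07 to -0.02). Without cluster 11, where *Gclc* was highest, its ML ratio was -0.12 (-0.17 to -0.08). The ratios of *Gclm*, *Gss* and *Gsr* were then -0.17, -0.13 and -0.08. In ML cells *Gstm4* was at 16.8 and 17.9 in WT and at 11.7 and 13.7 in the mutant (-0.45, -0.60 to -0.30), and *Gstm5*, *Gstt2* and *Gstt3* were at -0.27, -0.22 and -0.37. *Gstm2* was at 10.05 and 11.5 in WT and at 7.98 and 7.08 in mutant ML cells (-0.53, -0.72 to -0.33), and at -0.57 over all cells. Its ratio in ML cells was -0.62 without WT library A and -0.61 without mutant library A, and in both cases it met the rule. *Gstt1*, which acts on small halogenated compounds, was at 21.8 and 25.1 in WT and at 17.7 and 16.2 in the mutant (-0.48, -0.61 to -0.35). *Gpx8*, a peroxidase of the endoplasmic reticulum, was at 10.46 and 12.05 against 8.85 and 7.54 (-0.47, -0.65 to -0.28). In each of these genes both mutant libraries were below both WT libraries in ML cells, but of the other mu transferases with enough UMIs *Gstm1* overlapped (-0.08) and *Gstm6* was above.

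In LP cells the *Gclc* ratio was -0.36 (-0.60 to -0.12). Without the cells of top doublet score *Gclc* was at 30.99 and 29.95 in WT and at 18.9 and 20.2 in mutant LP cells (-0.63, -0.94 to -0.33), which met the rule. The thinned shares of LP cells with a *Gclc* UMI, 2.57% in WT and 2.07% in the mutant, were both below those of clusters 12 and 13 (7.14% and 6.36%), and within WT they were 2.33% in cluster 12 and 9.64% in cluster 13. The LP shares were therefore not above those of other cell types, and the part of background RNA in the LP difference was not tested. Unthinned, the mutant shares were 6.50% in LP cells and 16.7% in clusters 12 and 13, and the WT shares of clusters 12 and 13 alone were 6.98% and 22.9%.

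*Mgst2*, which can conjugate leukotriene A4, met the rule for lower levels in ML cells with 212 UMIs over all cells, at 1.88 and 2.23 in WT and at 1.23 and 1.39 in the mutant (-0.65, -1.12 to -0.19). It was highest in cluster 11 of WT cells (4.47), and with 1 mix of clusters in both genotypes its ratio was -0.35 and below the rule. It also missed the rule without WT library B (-0.52) and without mutant library A (-0.57). *Mgst1* had a log2 ratio of 0.18 over all cells, 0.02 in LP and 0.00 in ML cells. Of the remaining members in ML cells, *Prdx6* (-0.17), *Gstk1* (-0.20), *Gstz1* (-0.10), *Txnrd1* (-0.07) and *Cat* (-0.15) had both mutant libraries below both WT libraries, and *Gsto1* (0.09) above. The libraries of *Gstm1*, *Gstp1*, *Gstp2*, *Mgst3*, *Gpx7*, *Sod1* and *Nqo1* overlapped. *Nqo1*, at -0.21, met the rule for lower levels without mutant library B (-0.59), at levels of 1.00 to 1.60. The sparse *Gstm6* was at 0.77 and 0.91 in WT and at 1.09 and 1.18 in the mutant (0.43). *Gstm3*, *Gstm7* and *Gsta3*, with 15, 123 and 19 UMIs in all, did not reach 50 UMIs in either genotype of ML cells. Over the 35 members tested in ML cells, both mutant libraries were above both WT libraries in 10, below in 17 and overlapping in 8. In LP cells these counts were 6, 6 and 15 of 27. The same counts were not made over all genes, so they are not a result about the members.

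**Figure D5:**
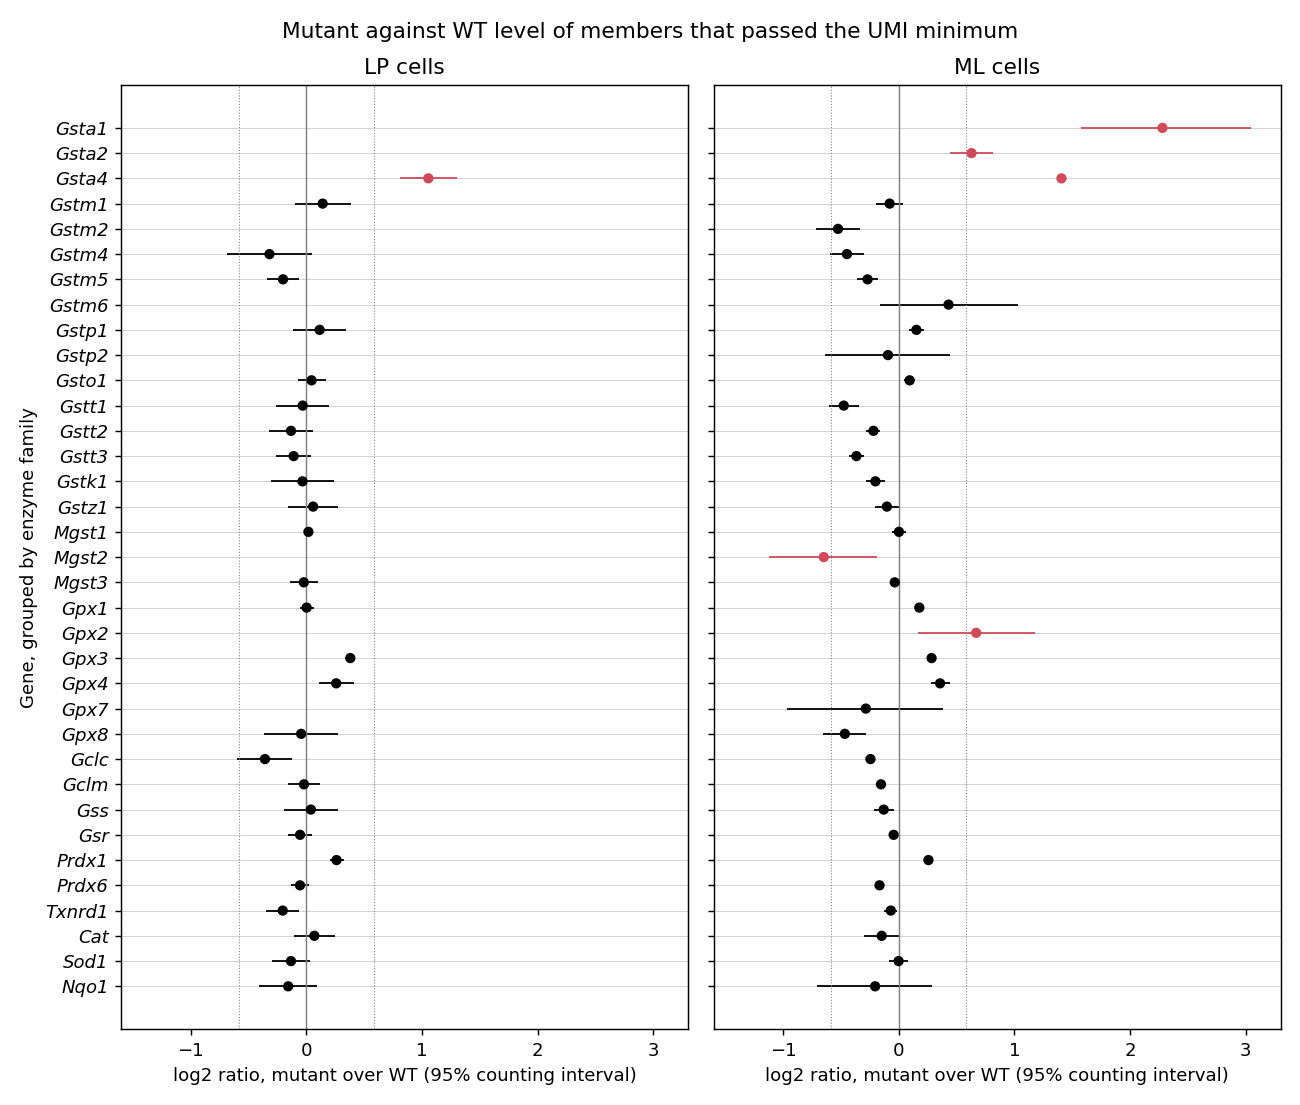
Log2 ratio of levels, mutant over WT, in LP cells (left) and ML cells (right) for the members that passed the UMI minimum, grouped by enzyme family; lines are 95% counting intervals, dotted lines mark 1.5-fold and red points met the rule. *Gsta4* is the red point in LP cells, at 1.06, and *Gsta1*, *Gsta2*, *Gsta4* and *Gpx2* lie right and *Mgst2* left of the dotted lines in ML cells.

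Without cluster 11, whose share differed between the genotypes, 2 of 33 members were higher in mutant ML cells (*Gsta1* and *Gsta4*) and 0 lower, beside 2.66% and 1.04% of all genes. The *Gsta4* ratio was then 1.28. All members together were at 5451 and 5592 in WT LP cells, at 5766 and 5989 in mutant LP cells, at 13712 and 13764 in WT ML cells and at 15982 and 16156 in mutant ML cells. The alpha transferases summed to 167 in each WT library and to 432 and 439 in the mutant ML libraries. The mu transferases were at 97.2 and 104 in WT and at 82.5 and 84.8 in mutant ML cells. Genes of dissociation stress differed between the genotypes too, and the 6 genes *Fos*, *Jun*, *Egr1*, *Atf3*, *Hspa1a* and *Hspa1b* summed to 14504 and 15085 in WT ML cells and to 12038 and 12681 in mutant ML cells. Among the marker lists of other cells, the 5 fibroblast genes summed to 15.03 and 13.8 in WT and to 5.43 and 4.38 in mutant ML cells, most of it *Dcn* (14.3 and 12.9 against 4.33 and 3.58), with *Pdgfra* at 0 in one library of each genotype. The 3 erythroid genes summed to 2.14 and 2.16 against 1.23 and 0.758, with *Hbb-bs* at 0 in 3 libraries, and the 6 immune genes to 3.43 and 4.76 against 7.84 and 5.27, with *Ptprc* at 0 in 2. The 5 basal genes summed to 15.03 and 17.0 against 13.9 and 13.2, the 4 proliferation genes to 179 and 182 against 205 and 196, and the 3 adipocyte genes to at most 0.295 in any library, while the libraries overlapped for the endothelial list. The part of these genes in the differences above was not tested.

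A further 73 genes of the pathway (glutathione turnover and transport, the thioredoxin system, NRF2 and its regulators, other NRF2 targets and superoxide enzymes) were examined by the same rules. Of 67 with enough UMIs, 10 were higher in LP and 12 in ML cells, where 10.2% and 6.86% of all genes were. With the largest folds in WT, those higher in LP were *Ptges* (7.60-fold), *Anpep* (4.96-fold), *Ephx1* (4.54-fold), *Idh1* (3.71-fold) and *Maff* (3.60-fold), and those higher in ML were *Akr1b3* (21.6-fold), *Ggt1* (9.25-fold), *Ggt7* (6.30-fold), *Ltc4s* (5.92-fold) and *Aldh3a1* (5.85-fold). *Ggt1*, which begins the breakdown of extracellular glutathione, was the most abundant of these 5 in ML cells, at 159 in WT ML and 17.1 in WT LP cells. *Akr1b3*, *Ggt7* and *Aldh3a1* had under 1 CPM in WT LP cells.

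Between the genotypes, 2 of 66 of these genes were higher and 1 lower in mutant ML cells, shares near the 2.86% and 1.57% of all genes, so the counts are not a result about these genes. *Aldh3a1*, an aldehyde dehydrogenase, was at 1.37 in WT and 2.19 in the mutant, *Gpx5* at 1.09 and 1.82, and the carbonyl reductase *Cbr3* at 4.16 and 2.76. *Txnip*, which binds and inhibits thioredoxin, was at 147 and 149 in WT and at 270 and 294 in mutant LP cells (log2 ratio 0.94, 0.84 to 1.04), and also met the rule in cluster 11 and over all cells. *Chac2*, an enzyme that degrades glutathione, was lower in mutant LP cells at 5.99 in WT and 3.80 in the mutant. These were 1 of 54 higher and 1 of 54 lower in LP cells, beside 2.23% and 0.606% of all genes. *Cbr3* was lower in cluster 11 as well, *Gpx5* was higher over all cells and in ML cells without cluster 11, and in LI cells 0 of 55 met the rule.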

How the data were processed

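Luminal cells of 2 genotypes were measured as 4 libraries (10x Chromium 3' kit v2). The authors deposited normalized signal values for every gene in every cell, along with the genotype, library, cluster and class of each cell. Each cell had been scaled by a factor of its own, to sums of 3516 to 3726. Dividing a cell by its smallest nonzero value returned whole UMIs (no value lay over 0.00989 from an integer). The submitters' processing notes name bcl2fastq 2.20, CASAVA 1.8, GSNAP and GRCm38, with no roles. The filters on cells and whether counting used the strand are not given in the sources used here. The clusters were made by the authors in Partek Flow. All 32439 cells were used, and no doublets were removed in the main values.

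The members and all gene lists were chosen with earlier results of these data known. Members with at least 500 UMIs are described by level, fold or ratio. The others are described by UMIs or range, and some of them by level, fold or ratio too. Of the further pathway genes, up to 5 per direction and comparison that met a rule are named. Counting intervals (95%) were exact, namely Poisson for a level, conditional binomial for a ratio on the log2 scale and Clopper-Pearson for a share of cells. Thinning to 1000 UMIs left out 45 WT and 252 mutant cells. Positions are those of GENCODE M21 (GRCm38), in which all 38 members matched by Ensembl identifier. Promoters are RefSeq's, and 50-base stretches of the last 400 bases of each member's longest protein-coding transcript were searched in all GENCODE transcripts. Doublet scores were those of scrublet in scanpy 1.11.5 at an expected rate of 6%. The alternatives were leaving out a library, TMM factors, means over cells, UMI minimums of 20 and 200, other folds, leaving out the 10% of cells of lowest depth or the 6% of highest doublet score, no rule on libraries, 1 mix of clusters and classes without the cycling clusters 2, 5 and 6. The rules were also run on simulated Poisson counts with known changes put in. The simulated libraries otherwise shared the level of each gene and had no variation between pools of mice. The runs therefore cannot tell how often differences between pools would meet the rules. Python 3.11.15, numpy 2.4.6, pandas 2.3.3, scipy 1.17.1 and matplotlib 3.10.9 were used, with a seed of 1.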

Additional observations from a re-analysis of the deposited data

Results flagged for a closer look

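In 4 cases a member had both mutant libraries on one side of both WT libraries in one group of cells and on the other side in another. *Gss* had a log2 ratio, mutant over WT, of 0.040 in LP and -0.13 in ML cells, and of 0.15 in cluster 11 against -0.13 in the other ML clusters. *Gpx1* was at -0.079 in cluster 11 and 0.16 in the other ML clusters. *Cat* was at 0.097 in LI and -0.15 in ML cells. All of these differences were below 1.2-fold, and the difference between the groups of cells was not tested. Such cases were not counted over all genes, so the 4 are not a result about the members.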

How the results depend on the processing

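No paired analysis was possible because the table gives no replicate number of a library. Of the counts and sums described above, 99 values stayed within 1.5 times or the spread under the alternatives and 43 did not, and when a library was left out 52 did and 12 did not. *Gsta4* met the rule in every alternative run except in LP cells without the cells of top doublet score. Members higher in ML cells numbered 13 with TMM factors and 16 at a fold of 1.5. Over all cells, members higher and lower in the mutant were 4 and 2 with means over cells and also without the cells of top doublet score, 1 and 0 at a minimum of 200 UMIs, and 5 and 7 at a fold of 1.2. The lower count was 2 with TMM factors, and 0 at a fold of 2 and with 1 mix of clusters. In LP cells they were 0 and 1 without the cells of top doublet score, and 2 and 2 at a fold of 1.2. In LI cells the lower count was 1 with means over cells, and they were 2 and 4 at a fold of 1.2. In ML cells they were 2 and 0 at a minimum of 200 UMIs, at a fold of 2 and with 1 mix of clusters, and 7 and 7 at a fold of 1.2. In cluster 11 the lower count was 2 with TMM factors and 0 at 200 UMIs or a fold of 2, and they were 3 and 5 at a fold of 1.2. In ML cells without cluster 11 they were 5 and 6 at a fold of 1.2, and the higher count was 4 with means over cells and 1 at 200 UMIs. Leaving out a library gave 8 to 10 members higher in ML, and for the mutant 1 to 2 higher and 1 to 2 lower over all cells, 0 to 2 lower in LI, 3 to 4 and 0 to 2 in ML, 1 to 2 and 0 to 2 in cluster 11, and 1 to 3 higher in ML without cluster 11. The log2 ratio of all members summed was 0.049 in LP and 0.24 in ML cells with means over cells, and 0.061 to 0.12 and 0.22 to 0.23 with a library left out. The *Gsta4* shares were 4.59%, 6.92%, 25.2% and 45.5% unthinned. Sums of some families had log2 ratios on both sides of 0 when a library was left out. Pi transferases gave -0.11 (without mutant library A) to 0.34 in LP and -0.031 (without mutant library A) to 0.32 in ML, and other soluble transferases -0.086 to 0.020 in LP (without mutant library A). Membrane transferases gave -0.036 (without mutant library B; -0.029 without WT library A) to 0.066 in LP and -0.076 to 0.028 (without WT library B) in ML, and the other peroxide and quinone enzymes -0.0080 (without mutant library B; -0.0021 without WT library A) to 0.043 in ML. Apart from changes set by a stricter or looser rule, the cause was not tested. Genes under 50 UMIs cannot be described at this depth.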
